A study of Rattus norvegicus with 11 samples.

Results

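The genes described here build, cross-link, cut and decorate the extracellular matrix, with the growth factor Igf2 and its binding proteins. They were chosen by name among the protein-coding features listed in all 11 files: collagen chains, laminin chains, fibulins, fibrillins, matrix metalloproteinases, their Timp inhibitors, Igf binding proteins, names that start with Lox, and Fn1, Sparc, Bgn, Dcn, Lum, Ogn, Fmod and Igf2. The rule found 77 genes among 23093 features, of which 10250 are protein-coding. No listed feature carries the name Sparc, Ogn or Col1a2, so these were not analysed. Another 4 features match by name and are no members: Col6a3 is annotated as a processed transcript, and Col4a5, Fbln2 and Mmp24 are listed in 6 files only, with at most 2.49 normalized reads. Loxhd1 shares only the start of its name with the lysyl oxidases.

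RNA came from 10-week-old Sprague-Dawley rats (spelled Sprague-Dawly in the labels), from tissue that the labels call cerebellum cortex. The 6 homozygous libraries are from rats with the R571X allele on both copies of CSB, the repair protein encoded by Ercc6 and mutated in Cockayne syndrome. The 2 heterozygous libraries carry R571X with a second allele that the genotype label gives only as a minus sign, while their titles read CSB+/-. The 3 wild-type libraries share the strain, age and tissue. Nothing in the labels says that libraries came from separate animals, so the p-values rest on differences among these libraries alone, some of which may be technical.

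Matrix proteins fall into families with different homes in the brain. Fibrillar collagens, chiefly types I and III, form rope-like fibrils with small leucine-rich proteoglycans bound along them, and in the brain they are made mostly by fibroblasts of the meninges and around large vessels. Type IV collagen and laminins form the thin basement membrane that wraps every vessel and underlies the brain surface. Igf2 is an insulin-like growth factor that in adult brain is best known from meninges and choroid plexus, and Igf binding proteins hold such factors outside the cell and meter their access to receptors.

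The libraries held between 5406669 and 8723823 reads assigned to features, and their values were deposited as reads divided by 1 size factor per library ("normalized reads" below). The files fall into 2 sets that each list exactly the same features, 24436 in the first and 24792 in the second. These sets are called tables below and were taken as normalized separately. The first holds homozygous replicates 1 to 3 and both heterozygous libraries, the second the remaining 6. Homozygote 1 below is homozygous replicate 1, and so on. Scaling all 11 libraries together moved a library by -1.63% to 2.27%, so values are set side by side across the tables below, while the limma tests carry a term for the table. The tissue label was checked with markers, of which only 4 of 18 for cerebellar neurons are listed in all files. Calb1, which is also made outside the cerebellum, had 441 to 4664 reads and Neurod1 29 to 439. Pvalb had at most 5 and Lmx1a at most 31. Pcp2, which defines Purkinje cells, had at most 2 in the 6 files that list it. The 4 genes summed to 88.9 to 569 CPM (reads scaled to a common library size) over all libraries, and 7 listed of 14 forebrain neuron markers to 5505 to 9784. The sums cover different genes, not all of them limited to 1 brain region, so their sizes are no test of the tissue label. Some genes in wider use in the brain were also near 0 in these files: Itpr1 had at most 3 reads in the 5 files that list it, and C1qc, of microglia, 0 to 4.16 normalized reads where its partner C1qb had 836 to 2801. A named feature near 0 therefore does not by itself speak to the tissue label.

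The 250 bases before the annotated starts of 4 of these genes are shown because Col8a2, Fmod and Igf2 had the same 4 highest libraries in the data below and Col4a1 did not. They are RefSeq sequences of build GRCr8, 5′ to 3′ along the gene, and RefSeq lists 2 starts for Igf2. Capitals mark a GC box (GGGCGG), bound by Sp-family factors, a CCAAT box (CCAAT), bound by NF-Y, a TATA box (TATAAA) or a forkhead core (GTAAACA), each searched on both strands.
Col8a2 (chr5:143870519-143870768, plus strand): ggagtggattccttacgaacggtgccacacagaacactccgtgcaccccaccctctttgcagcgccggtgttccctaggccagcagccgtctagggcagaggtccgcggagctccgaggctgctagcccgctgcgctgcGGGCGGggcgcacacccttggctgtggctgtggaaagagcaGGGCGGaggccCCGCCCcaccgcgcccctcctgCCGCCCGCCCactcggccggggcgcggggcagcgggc
Fmod (chr13:48045317-48045566, plus strand): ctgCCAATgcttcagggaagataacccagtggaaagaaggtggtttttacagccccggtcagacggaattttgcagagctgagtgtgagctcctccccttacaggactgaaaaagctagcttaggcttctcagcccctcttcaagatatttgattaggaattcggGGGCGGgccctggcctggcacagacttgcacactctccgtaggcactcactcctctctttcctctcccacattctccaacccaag
Igf2 upstream start (chr1:207253981-207254230, minus strand): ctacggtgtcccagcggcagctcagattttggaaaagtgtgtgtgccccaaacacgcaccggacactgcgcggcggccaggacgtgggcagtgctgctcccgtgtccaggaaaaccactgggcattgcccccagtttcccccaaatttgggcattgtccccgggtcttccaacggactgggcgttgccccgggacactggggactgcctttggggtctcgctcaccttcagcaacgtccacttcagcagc
Igf2 downstream start (chr1:207250476-207250725, minus strand): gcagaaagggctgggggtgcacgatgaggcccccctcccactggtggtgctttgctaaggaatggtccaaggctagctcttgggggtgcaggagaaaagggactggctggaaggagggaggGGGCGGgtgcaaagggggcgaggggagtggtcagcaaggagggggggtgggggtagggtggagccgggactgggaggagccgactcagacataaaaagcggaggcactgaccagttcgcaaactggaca
Col4a1 (chr16:84885347-84885596, plus strand): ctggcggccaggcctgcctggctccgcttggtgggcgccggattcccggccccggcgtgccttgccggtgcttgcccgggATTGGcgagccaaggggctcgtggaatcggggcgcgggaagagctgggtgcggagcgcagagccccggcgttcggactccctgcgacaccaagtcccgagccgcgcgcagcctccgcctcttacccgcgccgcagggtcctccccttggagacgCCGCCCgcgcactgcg
The Col8a2 window held 5 GC boxes, of which a pair overlap, and a GC content of 73.2%. Fmod held 1 GC box, 79 bases before the start, and 1 CCAAT box far upstream, at a GC content of 52.8%. None of the 4 motifs was in the window of the upstream Igf2 start, and 1 GC box was in that of the downstream start. Col4a1 held 1 GC box, 10 bases before the start, and 1 CCAAT box. A GC box is in 30.5% of all 33469 RefSeq windows of this length and in 26 of 62 windows of the 57 members that matched by symbol, and a CCAAT box in 34.02% and 17. A TATA box is in 12.9% of all windows and 8 of 62, and a forkhead core in 3.21% and 3. These are letters in a window, and the data hold no measurement of binding.

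Levels spanned a wide range. Per length, as RPKM (CPM divided by feature length in kilobases, means of 11 libraries), the binding protein Igfbp7, made in brain largely by vessel cells, stood first with 662, followed by the metalloproteinase inhibitor Timp2 with 357 and Igfbp2 with 181. The membrane-anchored metalloproteinase Mmp15 had 60.8 RPKM, Igfbp5 52.5, Igfbp4 49.1, the elastic-fibre glycoprotein Fbln1 36.9 and the proteoglycan Bgn 27.3. Among collagens, Col4a1 was highest with 20.5 RPKM, ahead of the cartilage-type chain Col9a3 with 17.4, the microfibril chain Col6a1 with 14.7 and Col1a1 with 13.5. Of the 77 members, 34 had a mean under 1 RPKM. Dcn (0 to 9.38 normalized reads) and Fn1 (0 to 14.2), both abundant in connective tissue, were almost unread here. Some genes in wider use in the brain were also near 0, as given above, so these values alone do not show the genes to be silent. A mean of at least 1 normalized read was needed for a test, which 74 members met. Col10a1, Mmp12 and Mmp13 did not.

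The members differed more between single libraries than features at large. Of 13568 features with a mean of at least 10 normalized reads, 10.0% had an SD of log2 CPM over the 11 libraries above 0.859, and 12 of the 55 members in that range (21.8%) did. The median SD was 0.623 for these members and 0.440 for all such features. The members were not matched to the other features for level. Igf2 was the most variable member (SD 1.74), then Fmod (1.65), Col8a2 (1.63), Col1a1 (1.48) and Col3a1 (1.27). Loxhd1 (1.12), Col17a1 (1.09), Igfbp2 (1.07), Loxl4 (1.02), Col4a3 (0.955), Loxl2 (0.890) and Col13a1 (0.862) were also above 0.859.

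**Figure D1:**
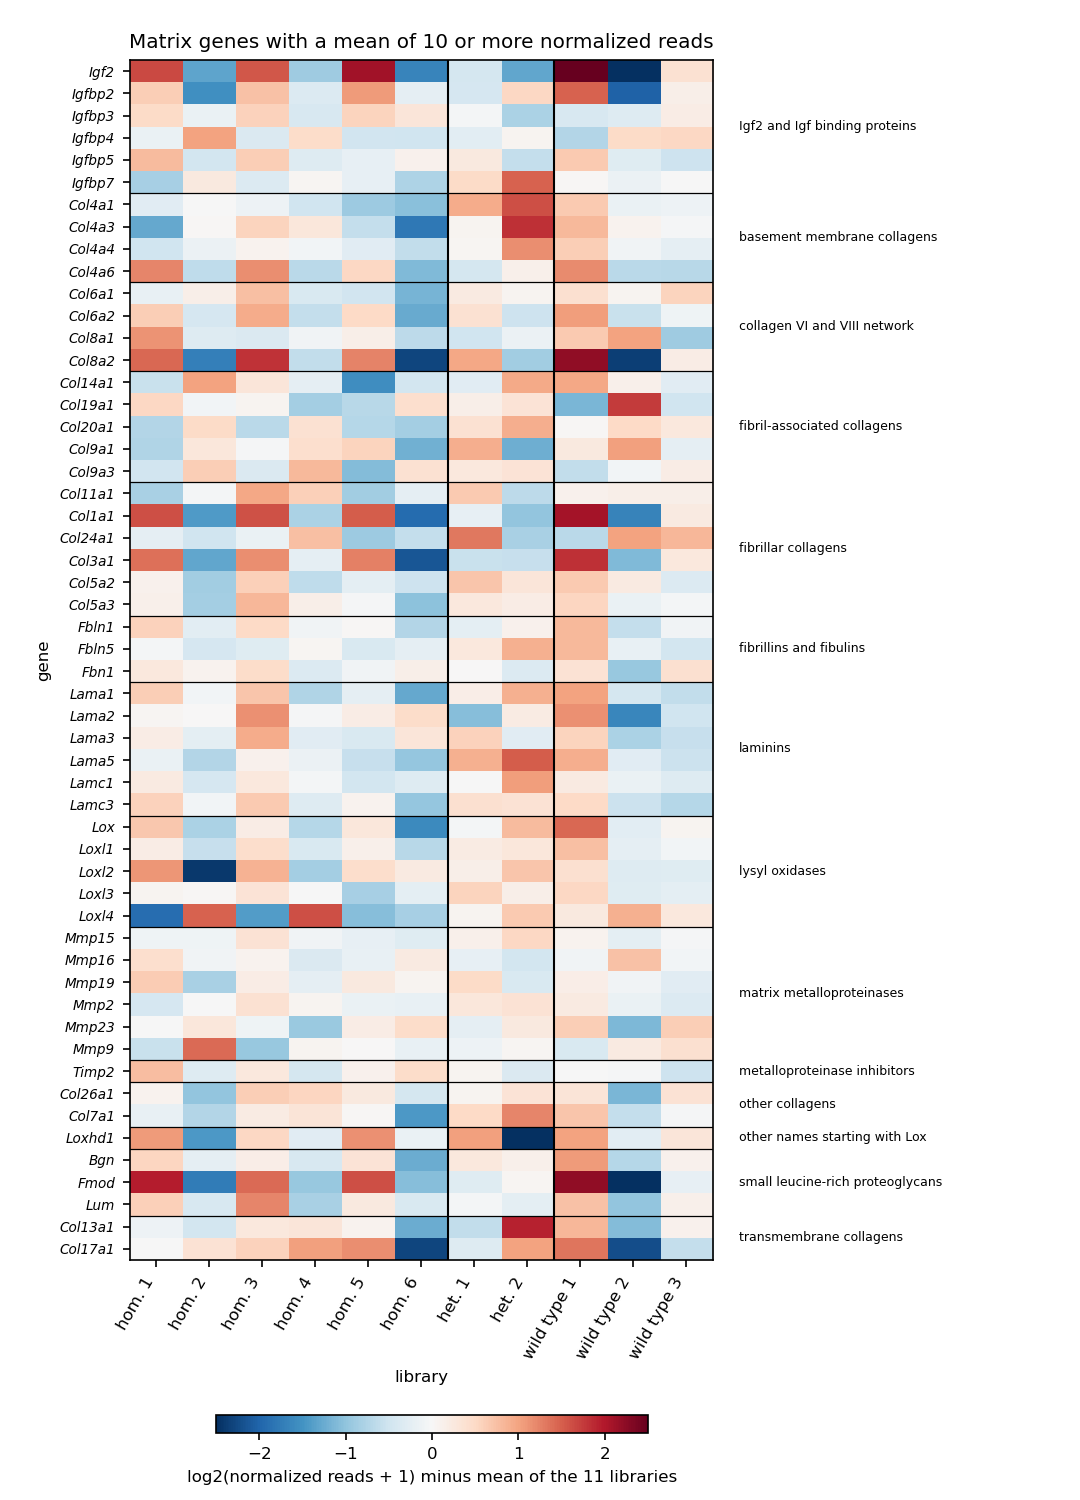
Level of members with a mean of at least 10 normalized reads (rows, 1 of the 55 not shown, grouped by role) in the 11 libraries (columns; hom., homozygous; het., heterozygous). Colour is log2(normalized reads + 1) minus the row's mean over the libraries, and stops at 2.5 in either direction. Igf2, Col8a2, Col1a1, Col3a1 and Fmod are red in homozygous replicates 1, 3 and 5 and wild-type replicate 1, and Col4a1, Lama5 and Igfbp7 in heterozygous replicate 2.

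Igf2, Fmod, Col8a2, Col1a1 and Col3a1 were high in the same 4 libraries, which come from both homozygous and wild-type groups and from both tables. Col1a1, a chain of type I collagen (chromosome 10, 82745801 to 82762789, plus strand, rn6), held 988, 121 and 975 normalized reads in homozygotes 1 to 3, 186, 934 and 84.96 in homozygotes 4 to 6, 280.1 and 162 in the heterozygous pair, and 1371, 101.4 and 377 in the wild type. Homozygous replicates 1, 3 and 5 and wild-type replicate 1 were above 900 reads, and no other library was above 400, so the genotypes overlapped. Col3a1, the type III chain that co-assembles with type I (chromosome 9, 52023295 to 52059217, plus strand), held 496, 77.4 and 429 normalized reads in homozygotes 1 to 3, 164, 460.1 and 42.5 in homozygotes 4 to 6, 130.1 and 128 in the heterozygous pair, and 678, 88.2 and 229 in the wild type. The same 4 libraries were highest. Homozygous libraries alone differed 11.6-fold between highest and lowest for Col1a1 and 11.7-fold for Col3a1.

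Igf2 (chromosome 1, 215828102 to 215846911, minus strand) held 821, 103 and 759 normalized reads in homozygotes 1 to 3, 139, 1119.6 and 81.6 in homozygotes 4 to 6, 189.6 and 105 in the heterozygous pair, and 1543, 40.4 and 339 in the wild type. Wild-type replicates 1 and 2 were the highest and the lowest of all 11, 38.2-fold apart. Fmod, fibromodulin, which binds collagen fibrils (chromosome 13, 50873605 to 50885563, plus strand), held 783, 59.3 and 539.9 normalized reads in homozygotes 1 to 3, 103, 615 and 94.95 in homozygotes 4 to 6, 162 and 209 in the heterozygous pair, and 931, 24.4 and 174 in the wild type. It too was highest in the same libraries and lowest in wild-type replicate 2. Col8a2, a short-chain collagen of sheet-like matrices (chromosome 5, 144308611 to 144335172, plus strand), held 168, 18.01 and 216 normalized reads in homozygotes 1 to 3, 39.7, 146 and 11.7 in homozygotes 4 to 6, 121 and 32.97 in the heterozygous pair, and 289, 11.3 and 69.7 in the wild type. Igfbp2, a soluble Igf binding protein (chromosome 9, 80118029 to 80144789, plus strand), held 1865, 417 and 2012 normalized reads in homozygotes 1 to 3, 950.5, 2518 and 1030.3 in homozygotes 4 to 6, 899.8 and 1739.9 in the heterozygous pair, and 3380, 297 and 1343 in the wild type. For Igfbp2 heterozygous replicate 2 came close to the 4 highest libraries.

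**Figure D2:**
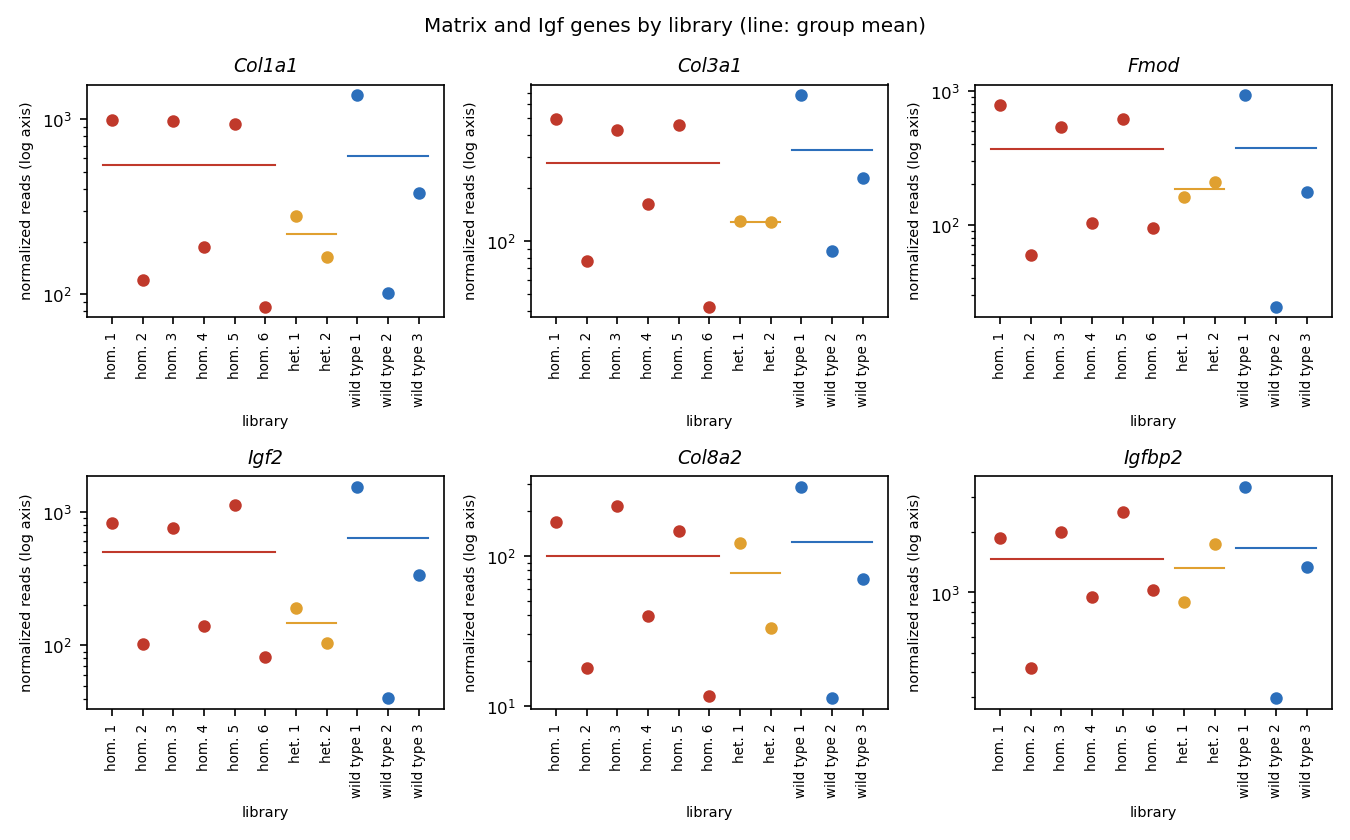
Normalized reads (log axis) of 6 genes in each library; each point is 1 library, coloured by genotype, and lines are group means. Homozygous replicates 1, 3 and 5 and wild-type replicate 1 are the 4 highest libraries in every panel, and the group means lie between separated points.

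In all, 9 of 74 members tested (12.2%) had exactly these 4 libraries as their 4 highest: Col1a1, Col3a1, Col4a6, Col6a2, Col8a2, Fmod, Lum, Igf2 and Igfbp2. Among all 20956 features tested the share was 1.43%. Loxhd1, Col17a1, Loxl4, Col4a3, Loxl2 and Col13a1, which also varied widely between libraries, did not have this pattern. The 4 libraries were picked after the values were seen, so the counts are a description. Wild-type replicate 1 was the highest library for 17 members (22.97%, against 8.10% of all features tested). Homozygous replicate 6 was the lowest for 24 of 74, against 13.2% of all features, and wild-type replicate 2 for 12, against 8.62%.

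Most markers of meningeal fibroblasts other than the matrix genes were highest in the same 4 libraries. Of 26 listed markers 18 are in all files, and 13 of these 18 had homozygous replicates 1, 3 and 5 and wild-type replicate 1 as their 4 highest libraries, and Prrx1, Mgp, Nnmt, Foxc1 and Dpp4 did not. Aldh1a2, the retinoic acid enzyme of the meninges, held 639, 41.3 and 567 normalized reads in homozygotes 1 to 3, 152, 644 and 60.8 in homozygotes 4 to 6, 152 and 63.5 in the heterozygous pair, and 977, 51.6 and 175 in the wild type. Slc22a6, an organic anion transporter of the arachnoid, held 349.8, 25.4 and 283 normalized reads in homozygotes 1 to 3, 49.1, 344 and 13.3 in homozygotes 4 to 6, 57.01 and 21.98 in the heterozygous pair, and 469, 15.96 and 105 in the wild type. Foxc2, a forkhead factor of meningeal mesenchyme, held 127, 6.36 and 135 normalized reads in homozygotes 1 to 3, 23.4, 100.9 and 6.66 in homozygotes 4 to 6, 42.1 and 18.3 in the heterozygous pair, and 204, 9.39 and 51.5 in the wild type. All 3 genes separated the same 4 libraries from the other 7.

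Summed over the 18 genes, the meningeal list ran from 94.4 to 415 CPM in the homozygous, 159.9 to 221 in the heterozygous and 113 to 606 in the wild-type libraries. It was 415, 384 and 414 CPM in homozygous replicates 1, 3 and 5 and 606 in wild-type replicate 1, and at most 221 elsewhere. Among the 18 markers Slc22a2 and Crabp2 had libraries at 0. Oligodendrocyte markers (5 of 9 listed) were lowest in the same libraries, at 1514, 1653 and 1047 and 1169 CPM, against 1776 to 4529 in the others. Choroid plexus markers (13 of 18 listed) summed to 29.2 to 74.98 CPM in the homozygous, 55.3 to 58.4 in the heterozygous and 15.6 to 105 in the wild-type libraries, with Ttr, the chief secreted product of that tissue, at 1.88 to 134 normalized reads, and 6 of the 13, Kcnj13 and Cldn2 among them, had a library at 0. Endothelial markers (10 of 18 listed) had none of their genes highest in these 4 libraries, and Tie1 and Esam had libraries at 0. Of the other cell type lists, 2 of 10 macrophage and microglia markers (F13a1 and Mrc1, known from macrophages at brain borders), 2 of 12 tested choroid plexus markers (Aqp1 and Kcnj13) and 1 of 9 astrocyte markers (Aqp4) were highest there, against 1.43% of all features. Macrophage and microglia markers (10 of 16 listed) summed to 291 to 523 CPM in the homozygous, 555 to 669.8 in the heterozygous and 206 to 584 in the wild-type libraries. The part of the amount of meningeal tissue in the matrix differences was not tested, and in bulk RNA more cells of a type and more RNA per cell cannot be told apart.

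**Figure D3:**
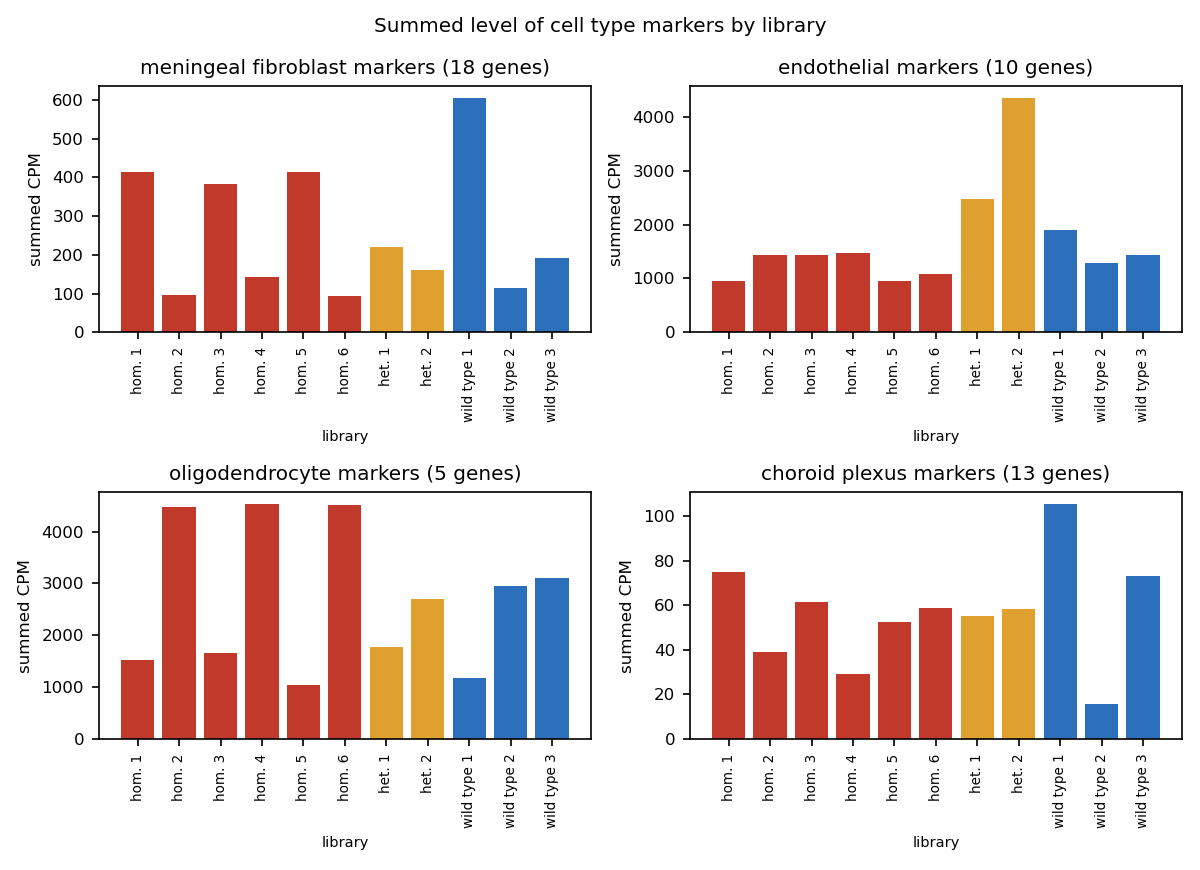
Summed level in CPM of 4 marker lists in each library (bars start at 0, coloured by genotype). Meningeal fibroblast markers are tallest in homozygous replicates 1, 3 and 5 and wild-type replicate 1, oligodendrocyte markers are shortest there, and endothelial markers are tallest in both heterozygous libraries. The endothelial sum is largely the gene Slc2a1.

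Other fibril genes were steadier, but Loxl2, Loxl4 and Loxhd1, listed below, had SDs of log2 CPM of 0.890, 1.02 and 1.12. Col5a2 and Col5a3, chains of the type V collagen that starts fibrils, ran from 77.4 to 231 and 71.6 to 264 normalized reads, and Col11a1, of a cartilage-type fibril, from 26.1 to 95.5. Lum, lumican, a fibril-spacing proteoglycan of the Fmod family, held 66.4, 32.8 and 103 normalized reads in homozygotes 1 to 3, 24.6, 52.1 and 33.3 in homozygotes 4 to 6, 42.1 and 36.6 in the heterozygous pair, and 73.3, 21.6 and 48.2 in the wild type. It had the same 4 highest libraries over a smaller range. Bgn, biglycan, ran from 167 to 832 reads, highest in wild-type replicate 1 and lowest in homozygous replicate 6. Among enzymes that cross-link collagen and elastin, Lox ran from 11.7 to 102, Loxl1 from 157 to 433 and Loxl3 from 54.4 to 144. Loxl2 (2.12 to 34.6) was lowest in homozygous replicate 2, and Loxl4 (1.44 to 26.9) was highest in homozygous replicates 2 and 4. Loxhd1 ran from 1.22 to 36.3.

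The type VI chains Col6a1 and Col6a2, which form beaded microfibrils around cells, ran from 123.3 to 466 and 109 to 546 reads. Fbln1 (442 to 1293), Fbln5 (55.6 to 143) and Fbn1 (63.8 to 171), parts of elastic and microfibril networks, differed at most 2.92-fold between libraries. Of the fibril-associated collagens, Col9a3 ran from 100.9 to 379 reads and Col20a1 from 30.8 to 106, and each of the other 6 had at most 46.9. Col13a1, a transmembrane collagen, ran from 12.5 to 119.7 reads and Col17a1, another, from 0.833 to 21.9. Col13a1 was highest in heterozygous replicate 2. Strand and part or all of the position are shared with another listed feature by 10 members, so their reads are uncertain. They are Col9a3, Col20a1, Col12a1, Col14a1, Col19a1, Col9a2, Col6a5, Lama2, Lamb2 and Timp2. The shared part was 70.5% of Col9a2 and 0.674% of Col6a5, both named in the comparisons below. Lamb2, the laminin beta2 chain, held 1.06 to 8.75 reads while an unnamed feature over nearly its whole length held 327 to 502.

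Most of the abundant proteases and their inhibitor spanned a narrow range. Mmp15 ran from 1260.2 to 2236 normalized reads, Mmp2, a gelatinase, from 152 to 267, and Mmp16, which is anchored in the membrane like Mmp15, from 198 to 452. Mmp9, the other gelatinase, ran from 40.7 to 214, highest in homozygous replicate 2. Collagenase Mmp8 (0 to 4.88), stromelysin Mmp3 (0 to 4.53) and Mmp11 (0 to 4.33) were at the limit of detection. Timp2, which inhibits these enzymes, ran from 2572 to 6317 and was highest in homozygous replicates 1 and 6. Igfbp4 ran from 388 to 1303 and was lowest in wild-type replicate 1, where Igf2 was highest. Igfbp5 ran from 1251 to 3254 and Igfbp3 from 72.04 to 186.

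Col4a1, of the basement membrane, was highest in other libraries. It held 618, 745 and 689 normalized reads in homozygotes 1 to 3, 537, 402 and 363 in homozygotes 4 to 6, 1438 and 2303 in the heterozygous pair, and 1183, 671 and 690 in the wild type. The heterozygous pair was highest, and wild-type replicate 1 came next. Of the other type IV chains, best known from specialised membranes such as the kidney filter, Col4a3 ran from 13.3 to 176, Col4a4 from 149 to 513 and Col4a6 from 6.66 to 37.5 reads. Among laminins, Lamc1, the gamma chain shared by most laminins, ran from 563 to 1598, Lama5 from 155 to 864, Lamc3 from 53.3 to 164 and Lama2 from 4.69 to 38.3. Col15a1, a collagen that links basement membranes to the matrix beneath, ran from 1.09 to 13.6.

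Homozygous and wild-type tissue were compared to see whether these genes differ when both CSB copies carry R571X. None of the 74 members passed an adjusted p of 0.05 in limma, against 0.0382% of all 20956 features (8), and neither edgeR (0.0239% of all) nor DESeq2 (0.181%) called a member. At an unadjusted p under 0.05 there were 6 members (8.11%) in limma, close in total to the 6.35% of all features. By direction, 5 of the 74 were lower and 1 higher in the homozygous libraries, where all features split nearly evenly (3.01% lower and 3.34% higher). In the table that holds both groups, 6 members (8.11%) had no overlap between them, against 11.3% of all features. More members had a negative than a positive log2 difference, 55 against 19, with a median of -0.29 where all features had a median of -0.001 and 49.9% above 0. Members share libraries, so these signs are not independent of each other, and wild-type replicate 1 was in this contrast. By role, positive differences numbered 1 of 7 fibrillar collagens, 0 of 4 basement membrane collagens, 0 of 7 chains of collagens VI and VIII, 3 of 8 fibril-associated collagens and 3 of 9 laminins. They numbered 2 of 9 metalloproteinases, 1 of 5 lysyl oxidases, 1 of 4 small leucine-rich proteoglycans, 0 of 4 fibrillins and fibulins and 3 of 8 among Igf2 and its binding proteins. In the smaller roles they numbered 2 of 3 other collagens and 1 of 2 transmembrane collagens. Col15a1 and Timp2, each alone in its role, were positive, and Fn1 and Loxhd1, also alone, were negative. Without wild-type replicate 1 the members' median was -0.048.

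Of the 5 members with the smallest p among the lower ones, 4 were chains of collagens VI and IV. Col6a1 (chromosome 20, 12658065 to 12675561, plus strand) held 213, 199 and 123.3 normalized reads in homozygous replicates 4 to 6 and 369, 293 and 409 in the wild type. The groups did not overlap, and the means were 178 ± 48.3 and 357 ± 58.8 (SD, n = 3 each). The log2 difference was -1.02 (SE 0.28, 95% interval -1.62 to -0.42, adjusted p = 0.518) in limma. Homozygous replicates 1 to 3 of the other table, with 244, 307 and 466 reads, overlapped the wild type, with replicate 1 below and replicate 3 above all of it. Col4a1, the main type IV chain (chromosome 16, 83522162 to 83632153, plus strand), held 537, 402 and 363 against 1183, 671 and 690 reads, a log2 difference of -0.93 (SE 0.26, 95% interval -1.49 to -0.37, adjusted p = 0.529) in limma. Here too the groups did not overlap, but homozygous replicates 1 to 3, with 618, 745 and 689 reads, overlapped the wild type. For Col6a5, Col6a6 and Mmp8, each with few reads, differences were -1.76 (SE 0.59, adjusted p = 0.675), -1.29 (SE 0.55, adjusted p = 0.757) and -1.58 (SE 0.69, adjusted p = 0.757) in limma.

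The members with the smallest p among positive differences were scarcely read. Col9a2 (1.46, SE 0.66, adjusted p = 0.776), Igfbp6 (1.16, SE 0.78, adjusted p = 0.87), Lamb3 (0.84, SE 0.61, adjusted p = 0.888), Mmp3 (1.07, SE 0.82, adjusted p = 0.894) and Col22a1 (0.78, SE 0.70, adjusted p = 0.915) led in limma, and each had at most 24.6 normalized reads in any library. The genes that varied most between libraries gave wide intervals. Igf2 had a log2 difference of -0.25 (SE 1.21, 95% interval -2.87 to 2.38, adjusted p = 0.984), Col1a1 of -0.61 (SE 1.02, 95% interval -2.82 to 1.60, adjusted p = 0.95), Col3a1 of -0.69 (SE 0.89, 95% interval -2.61 to 1.23, adjusted p = 0.939) and Fmod of 0.19 (SE 1.18, 95% interval -2.37 to 2.74, adjusted p = 0.987) in limma, and each interval reached well to both sides of 0. Without wild-type replicate 1 the difference was 0.99 for Igf2, 0.33 for Col1a1 and 0.055 for Col3a1, and without homozygous replicate 6 it was 0.51, 0.15 and 0.19. Either library alone turned their direction. Fmod turned without homozygous replicate 5 (-0.69) or wild-type replicate 2 (-1.14).

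When 6 homozygous libraries were set against 3 wild-type ones on a joint scale, the groups did not overlap for 1 member of 74 (1.35%), against 1.94% of all features. That was Mmp8, with at most 4.88 normalized reads (exact permutation test, two-sided, p = 0.0119, the floor set by 84 arrangements, adjusted p = 1 over all features). Its log2 CPM difference was -0.84. Igf2 differed by 0.13 log2 CPM over these 9 libraries and Col1a1 by -0.12 (exact permutation p = 0.952 and 0.94). Col6a1 differed by -0.57 and Col4a1 by -0.61 (exact p = 0.19 and 0.107).

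Homozygous and heterozygous tissue were compared to set R571X on both copies against the heterozygous genotype. Col4a1, Lama5 and Igfbp7 had more reads in the heterozygous libraries, and Col1a1, Col3a1 and Igf2 had higher homozygous means, but no member passed in limma or edgeR (0 of 74, against 0% of all features in both). At an unadjusted p under 0.05 limma had 7 members (9.46%), 5 of them lower in the homozygous libraries, against 12.1% of all features (5.96% lower and 6.16% higher). DESeq2 called 2 members, 2.70% against 0.978% of all features (0.678% lower): Col4a1 (adjusted p = 0.00358) and Igfbp7 (adjusted p = 0.0391), both lower. Of 74 members 36 had a positive log2 difference, against 52.7% of all features, and the median was -0.00053, that of all features 0.042.

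Col4a1 held 618, 745 and 689 normalized reads in homozygous replicates 1 to 3 and 1438 and 2303 in the heterozygous libraries, a log2 difference of -1.41 (SE 0.29, 95% interval -2.04 to -0.79, adjusted p = 0.2) in limma. The groups did not overlap, and both heterozygous libraries were above all 9 others. Lama5, the laminin chain of vessel walls (chromosome 3, 175553045 to 175601127, minus strand), held 268, 182 and 324 against 561 and 864, a difference of -1.47 (SE 0.41, 95% interval -2.35 to -0.58, adjusted p = 0.263) in limma. Wild-type replicate 1, with 566, lay just above the lower of them. Igfbp7 (chromosome 14, 33010300 to 33070190, plus strand) held 2427, 5051 and 3405 against 5991 and 11948, a difference of -1.29 (SE 0.34, 95% interval -2.02 to -0.55, adjusted p = 0.253) in limma. Both heterozygous libraries were above all others. The pair stood highest for 2 members of 74 (2.70%), Col4a1 and Igfbp7, against 5.54% of all features. Col4a4 (-0.79, SE 0.35, adjusted p = 0.398) and Fbln5 (-0.83, SE 0.37, adjusted p = 0.4) were the next in limma. Groups did not overlap for 10 of 74 members, against 30.3% of all features.

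Vessel markers had the same direction. All 10 endothelial markers had a negative log2 difference with a median of -1.32, 8 of them at an unadjusted p under 0.05 (5.96% of all features were lower at that p) and 0 past the threshold in limma. The glucose transporter Slc2a1 held 3367, 5911 and 5606 against 9622 and 19534 reads. Its mean over all libraries, 6603 normalized reads, was the highest of the list, followed by 2073 for Slco1c1. The endothelial sum is therefore largely Slc2a1. The endothelial list summed to 946 to 1468 CPM in the homozygous, 2481 to 4357 in the heterozygous and 1292 to 1907 in the wild-type libraries, and mural cell markers (10 of 13 listed) to 199 to 315 CPM in the homozygous, 419 to 618 in the heterozygous and 231 to 496 in the wild-type libraries. Other cell types also set the pair apart. Neuron markers (6 of 8 listed) summed to 1968 to 3279 CPM in the homozygous, 1349.7 to 1722 in the heterozygous and 1983 to 2776 in the wild-type libraries, with 3 of 6 higher in the homozygous libraries at an unadjusted p under 0.05 (6.16% of all features). Macrophage and microglia markers, summed above, were higher in the pair than in every homozygous library, while wild-type replicate 1 lay between the pair. The part of vessel content, or of these other cell types, in the Col4a1, Lama5 and Igfbp7 differences was not tested.

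**Figure D4:**
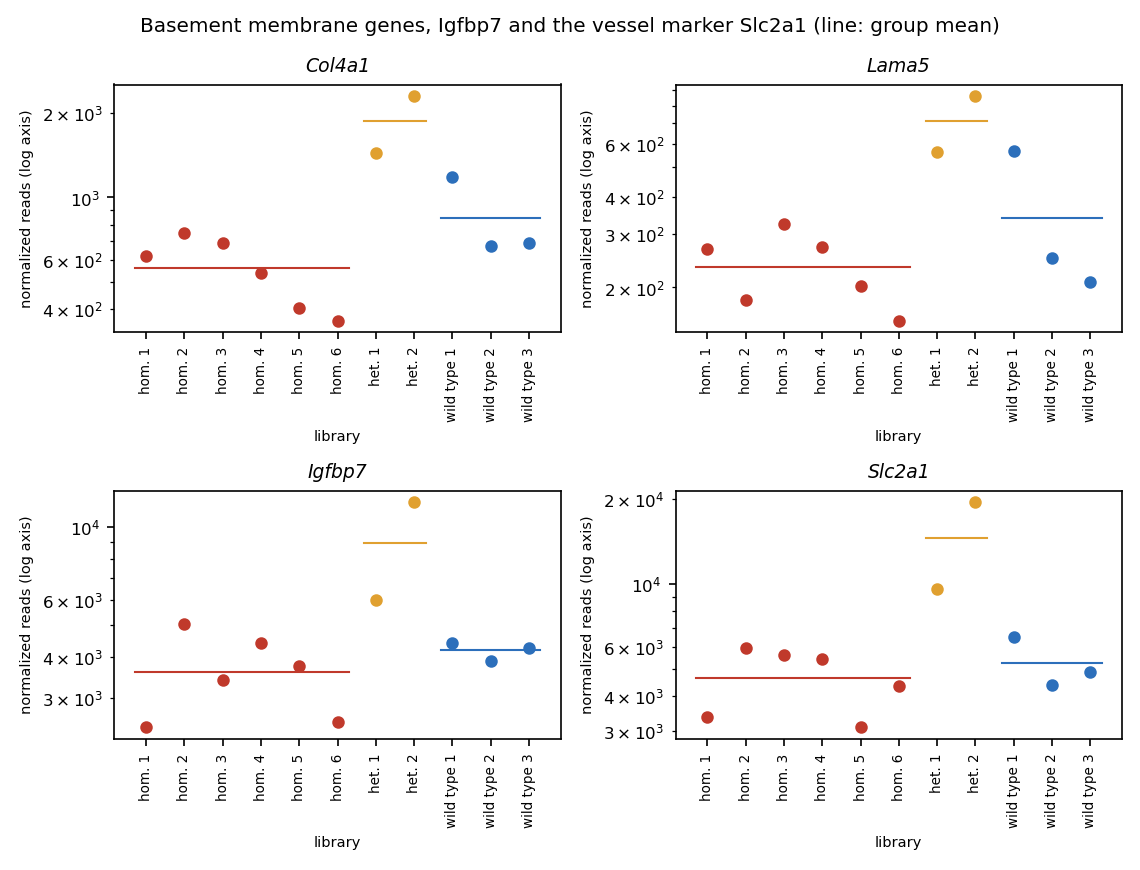
Normalized reads (log axis) of Col4a1, Lama5, Igfbp7 and the endothelial marker Slc2a1 in each library; points are libraries coloured by genotype and lines are group means. For Col4a1, Igfbp7 and Slc2a1 both heterozygous libraries lie above all others.

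Among members with more reads in the homozygous libraries, Igfbp3, the main carrier of Igf in blood, held 175, 111 and 186 against 121 and 72.04 (0.71, SE 0.36, adjusted p = 0.46), and Mmp16 363, 255 and 288 against 234 and 198 (0.47, SE 0.29, adjusted p = 0.543) in limma. For Col6a5, which had no read in either heterozygous library and at most 6.65 in the homozygous, and Fbn2 (0.87, SE 0.60, adjusted p = 0.592 in limma) the reads were few. Igf2 had a difference of 1.499 (SE 1.36, 95% interval -1.44 to 4.44, adjusted p = 0.69), Col1a1 of 1.19 (SE 1.14, 95% interval -1.28 to 3.66, adjusted p = 0.71), Col3a1 of 0.97 (SE 0.99, 95% interval -1.17 to 3.12, adjusted p = 0.726) and Fmod of 0.67 (SE 1.32, 95% interval -2.19 to 3.53, adjusted p = 0.87) in limma. In each of these 4 genes homozygous replicate 2 lay below both heterozygous libraries while replicates 1 and 3 lay above them. Meningeal markers had 14 of 18 positive differences, with a median of 0.79 and 0 past the threshold, where 52.7% of all features were positive. Ependymal markers, of the cells that line the ventricles, had 7 of 7 positive with a median of 1.10, none at an unadjusted p under 0.05. They (7 of 10 listed) summed to 23.6 to 64.98 CPM in the homozygous, 8.83 to 66.9 in the heterozygous and 21.5 to 51.3 in the wild-type libraries. Their part in the differences was not tested.

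**Figure D5:**
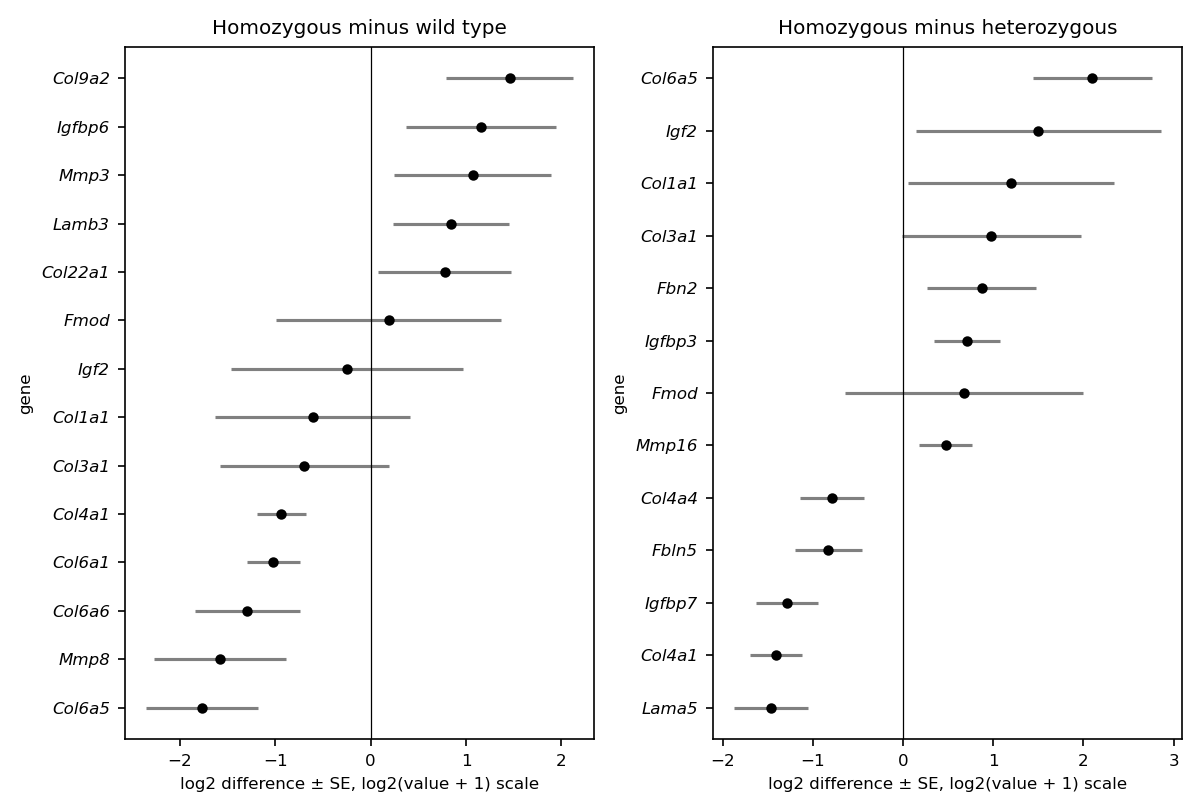
Log2 differences (points) with standard errors (bars) on the log2(value + 1) scale, for members with the smallest p in each direction (1 not shown) and for Igf2, Col1a1, Col3a1 and Fmod; left, homozygous minus wild type; right, homozygous minus heterozygous. Bars are longest for the genes with the largest spread between libraries, and no gene passed the threshold.

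Heterozygous and wild-type libraries share no table, so their difference carries the error of both contrasts above. No member passed, against 0% of all features in limma, 0% in edgeR and 0.124% in DESeq2, and 4 of 74 (5.41%) had an unadjusted p under 0.05 in limma, against 7.96% of all features. Of the 4, 1 was higher in the heterozygous libraries (3.9% of all) and 3 were lower (4.07%). Positive differences numbered 27 of 74, against 48.6% of all features. The smallest p among positive differences was that of Igfbp7, 1.02 (SE 0.46, adjusted p = 0.622) in limma, ahead of Col9a2 (1.71, SE 0.99, adjusted p = 0.686), Lama5 (0.88, SE 0.55, adjusted p = 0.704), Col4a1 (0.48, SE 0.39, adjusted p = 0.761) and Fbln5 (0.59, SE 0.50, adjusted p = 0.777). Among negative ones it was Col6a5 (-3.86, SE 0.88, adjusted p = 0.564), with Col6a1 (-1.11, SE 0.42, adjusted p = 0.585), Mmp16 (-0.77, SE 0.40, adjusted p = 0.65) and Col6a6 (-1.52, SE 0.82, adjusted p = 0.66) also among the smallest in limma.

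Genes that work with these proteins were counted the same way, and 0 passed in limma in any of the 3 comparisons (0.0382%, 0% and 0% of all features). Over all features 49.9% of differences between homozygous and wild type were positive, with a median of -0.001, and 52.7% between homozygous and heterozygous, with a median of 0.042. Of 11 tested collagen-processing enzymes, such as the prolyl and lysyl hydroxylases, 4 had a positive difference between homozygous and wild type (median -0.093), and Serpinh1, the collagen chaperone, held 1335, 889 and 1544 normalized reads in homozygotes 1 to 3, 1195, 1176 and 766 in homozygotes 4 to 6, 1527 and 1731 in the heterozygous pair, and 1587, 947 and 1301 in the wild type. TGF-beta pathway genes had 3 of 14 positive (median -0.31), and against heterozygous tissue also 3 of 14 (median -0.70). Matrix receptors had 2 of 13 positive against wild type (median -0.24), other metalloproteases and regulators 4 of 19 (median -0.32) and other fibrous matrix genes 7 of 19 (median -0.28). Genes of the neural matrix, which forms nets around neurons, had 5 of 12 positive (median -0.17), basement membrane partners 2 of 5 (median -0.044) and Igf receptors and proteases 6 of 10 (median 0.060). Against heterozygous tissue the basement membrane partners had 3 of 5 positive (median 0.12). Their Vwa1 was lower there (-1.87, SE 0.26, adjusted p = 0.16 in limma). It held 2774 and 3615 normalized reads in the heterozygous pair, and at most 1321, in wild-type replicate 1, elsewhere.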

How the data were processed

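Each file holds 1 library of RNA from rat tissue. The submitters' processing notes name HISAT2 2.0.4, FastQC and build rn6. Which counter, annotation and strand setting were used is not given in the sources used here. As deposited, values are a signal: reads of each feature divided by 1 size factor per library. Allowing a deviation of 0.001 read, all deposited values were whole multiples of 1 read, so reads were recovered. The other column used, feature length in bases, is as the authors deposited it per the file headers.

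The 3 genotypes entered a single limma fit (version 3.58.1 in R 4.3.3, with trend) of log2(value + 1) for 20956 features listed in all files with a mean of at least 1, with a term for table and Benjamini-Hochberg adjustment over all features. Fold changes on this scale understate the change of genes with few reads. For homozygous against wild type the contrast rests on 3 against 3 libraries of 1 table, against heterozygous on 3 against 2. CPM, RPKM and the exact permutation test used reads of all libraries with TMM scaling (edgeR 4.0.16, prior count 2). DESeq2 1.42.0 and edgeR's quasi-likelihood test on the recovered reads were alternatives. The limma and edgeR fits were also run on simulated data with changes put into abundant genes only, and DESeq2 was not. How many of those changes were called is not given here, so that run does not bear on the absence of called members. Named are up to 5 members per direction with the smallest p in each comparison, up to 3 per role with the highest mean, the 10 with the largest SD at a mean of at least 10, and Igf2, Col1a1, Col3a1, Dcn, Lum and Fn1 always; other genes named with their ranges or as examples from lists were chosen after their values were seen. The values of 1 member are not reported here, although it is counted. Members, lists and tests were chosen with earlier results of these data known.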

Additional observations from a re-analysis of the deposited data

Results flagged for a closer look

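Mmp15, the most abundant metalloproteinase measured, stood apart in 1 homozygous library. Homozygous replicate 3 held 1989 normalized reads, and the other 5 homozygous libraries held 1260.2 to 1459. The gap to the nearest library was 0.703 of the group's whole range on the log2 CPM scale, above Dixon's 95% critical value for 6 samples. Chance flags about 5% of groups, and 53 genes were checked, so 1 flag among them is no more than chance gives. Heterozygous replicate 2 held more (2236).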

How the results depend on the processing

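No member was called for homozygous or heterozygous against wild type under any setting run: limma, edgeR, DESeq2, other pseudocounts and filters, TMM scaling, no table term, the replicate block or any library left out. For homozygous against heterozygous the count was 0 except in DESeq2, which called 2 members, Igfbp7 (-1.32) and Col4a1 (-1.46, log2 differences). With each library left out, the members' median difference ran from -0.41 to -0.048 (homozygous against wild type), -0.12 to 0.13 (against heterozygous) and -0.44 to -0.064 (heterozygous against wild type). The replicate numbers are no pairing: same-numbered libraries had correlations of -0.0877 to 0.163 in their deviations, and 1 of 6 libraries correlated best with its own number. As a block, they left 0 members called in each comparison and moved the median to 0.033 for homozygous and 0.088 for heterozygous against wild type. The block fit had no table term. Only homozygous libraries carry the numbers 4 to 6, so these libraries drop out of its contrasts. Its homozygous against wild type contrast therefore rests on homozygous replicates 1 to 3, which are of the other table than wild type. With the block, homozygous against wild type turned for Col3a1 (0.051), Col1a1 (0.34), Igf2 (0.48) and Igfbp6 (-0.76). Igf2 also turned with no table term (0.11), and Fmod in edgeR (-0.50) and DESeq2 (-0.47). With 1 library left out, homozygous against wild type ran from -1.62 to 0.99 for Igf2, -1.57 to 0.33 for Col1a1, -1.51 to 0.19 for Col3a1 and -1.14 to 1.46 for Fmod, and Fmod against heterozygous from -0.035 to 1.81. None of these was called, and the cause was not tested. The count of members whose 6 homozygous and 3 wild-type libraries do not overlap, 1 of 74, ran from 1 to 5 with 1 library left out, the highest without wild-type replicate 1 (6.76% of members against 7.39% of all features). Over these runs the share of all features was 2.55% to 7.39%. The fit on only the compared libraries was not run for heterozygous against wild type, which share no table. Depth limits the 22 members with a mean under 10 normalized reads.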

Other observations

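Some genes outside the name rule had the same 4 highest libraries, homozygous replicates 1, 3 and 5 and wild-type replicate 1, and were picked for that. The pattern was in 4 of 19 other fibrous matrix genes, 1 of 11 collagen-processing enzymes and 1 of 10 Igf receptors and proteases. It was in 1 of 5 basement membrane partners and 1 of 19 other metalloproteases and regulators. For neural matrix, TGF-beta and matrix receptor genes it was 0 of 12, 0 of 14 and 0 of 13, against 1.43% of all features. Col6a3, the third chain of type VI collagen, annotated here as a processed transcript, held 122.6, 11.7 and 111 normalized reads in homozygotes 1 to 3, 16.4, 89.5 and 13.3 in homozygotes 4 to 6, 21.1 and 15.9 in the heterozygous libraries, and 146, 12.2 and 25.7 in the wild type. Pcolce, which speeds the trimming of fibrillar procollagen, held 201, 29.7 and 188 normalized reads in homozygotes 1 to 3, 58.5, 167 and 31.7 in homozygotes 4 to 6, 49.6 and 30.5 in the heterozygous pair, and 239, 24.4 and 73.9 in the wild type. Insrr, an orphan receptor of the insulin receptor family, held 39.7, 0 and 22.4 normalized reads in homozygotes 1 to 3, 9.35, 47.6 and 4.16 in homozygotes 4 to 6, 2.48 and 0 in the heterozygous pair, and 38.3, 0.939 and 6.64 in the wild type. Kcnj13, a potassium channel known from choroid plexus, held 49.8, 2.12 and 26.6 normalized reads in homozygotes 1 to 3, 3.51, 55.5 and 1.67 in homozygotes 4 to 6, 0 and 0 in the heterozygous pair, and 57.99, 0.939 and 15.8 in the wild type, while Ttr, the defining choroid plexus gene, was highest in wild-type replicate 3 (134) and homozygous replicate 6 (82.5). The reverse held for Dpt, of the other fibrous matrix list. It held 6.49, 7.48 and 4.53 normalized reads in homozygous replicates 1, 3 and 5 and 4.38 in wild-type replicate 1, against 16.1 to 48.8 elsewhere. These are values only, and no cause was tested.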
